A study of Drosophila melanogaster with 2 samples.

Results

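Binding of a GFP-tagged copy of the transcription factor Giant was described at 34 Polycomb and trithorax group genes, out of 13945 protein-coding genes on the main chromosome arms of Drosophila melanogaster (dm6). The members were taken from a fixed list of symbols covering 8 complexes or roles, and all 34 were found in the Ensembl release 115 annotation, calypso under its current symbol caly. Chromatin immunoprecipitation followed by sequencing (ChIP-seq) had been done with an anti-GFP antibody on whole embryos of strain gt-GFP, which carries an insertion targeting gt and expresses a gt-eGFP fusion. Giant, the product of the gap gene gt, is a bZIP repressor active in early anterior-posterior patterning. The embryos were 0 to 18 h old and of uncollected sex, so each library mixes many stages and tissues. Which promoter drives the fusion was not stated in the labels, and the antibody field of the labels names gt. The series has 1 group with 2 biological replicates of the same strain and no second group, so the members were set beside all genes and no test between groups was possible.

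Polycomb group proteins keep developmental genes such as the Hox genes silent after the early patterning factors are gone, and trithorax group proteins keep them active. Polycomb repressive complex PRC2 methylates histone H3, PRC1 reads that mark, compacts chromatin and ubiquitinates histone H2A, and PhoRC brings them to DNA. Gap factors such as Giant set the first on and off states of Hox genes, which the Polycomb and trithorax proteins then maintain.

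The authors' peak lists give each bound region a summit, the position of highest signal, and a signal value, whose scaling the labels do not state. Each peak was given to the protein-coding gene whose transcription start site (TSS) lay nearest to its summit, up to a distance of 10000 bp. Where genes tied for the nearest TSS, the peak was given to each of them. The pooled list combines both replicates and held 1825 main-arm peaks, whose median signal was 93.7 and highest 1211. Replicate 1 had 1163 main-arm peaks of its own and replicate 2 had 1100. All 4 thresholded lists, the shorter conservative one included, were cut at an irreproducible discovery rate (IDR) of 0.01, a measure of how well 2 sets of peaks rank a region alike. Longer ranked lists run below that threshold. Signals and ranks are read within a list, and the files hold no read counts, so depth is unknown.

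The DNA under the summits is shown first for the strongest site of the members (ph-p), for the site upstream of its neighbour ph-d, for the strongest site of Trl, for kis, for 3 PRC2 or PhoRC promoters, and for 2 sites discussed below at trx and brm. Each is the plus strand of the Release 6 sequence (the assembly called dm6), 5′ to 3′, 100 bp to each side of the summit, or 30 bp around it where the summit lies in a 5′ UTR. Capitals mark, on either strand, the letters TTACGTAA with at most 1 mismatch (the Giant site), CAGTG and the longer ACAGTGG that contains it, TATCGATA (bound by DREF), GAGAG (GAGA factor) and GCCAT (Pho). CAGTG and ACAGTGG were chosen with earlier results of these data known, and their frequency outside the peaks was not measured. GGTCACACT (M1BP) was also sought and marks none of the windows.
ph-p, X:2137244-2137444: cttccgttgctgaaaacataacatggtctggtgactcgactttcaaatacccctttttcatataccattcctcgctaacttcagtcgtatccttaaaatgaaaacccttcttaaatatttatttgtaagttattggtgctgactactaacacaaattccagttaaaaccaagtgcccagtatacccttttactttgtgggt
ph-d, X:2124027-2124227: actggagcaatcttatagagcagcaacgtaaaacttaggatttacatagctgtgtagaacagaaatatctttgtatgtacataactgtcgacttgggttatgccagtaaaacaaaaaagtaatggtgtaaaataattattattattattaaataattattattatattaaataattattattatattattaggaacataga
Trl, 3L:14759392-14759592: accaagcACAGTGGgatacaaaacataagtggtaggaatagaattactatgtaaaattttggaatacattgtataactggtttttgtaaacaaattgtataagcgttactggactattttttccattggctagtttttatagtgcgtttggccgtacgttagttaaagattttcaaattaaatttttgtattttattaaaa
kis, 2L:223421-223621: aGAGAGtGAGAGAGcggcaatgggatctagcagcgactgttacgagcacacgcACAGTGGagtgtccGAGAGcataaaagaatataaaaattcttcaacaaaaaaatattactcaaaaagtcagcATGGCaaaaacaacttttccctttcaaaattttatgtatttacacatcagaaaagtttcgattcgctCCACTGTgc
E(z), 3L:10638057-10638086: caaccattttgtactgaaagtaggaaataa
Su(z)12, 3L:19923374-19923403: acattgcaaatgaaagcattatttttttgc
Sfmbt, 2L:13176838-13177038: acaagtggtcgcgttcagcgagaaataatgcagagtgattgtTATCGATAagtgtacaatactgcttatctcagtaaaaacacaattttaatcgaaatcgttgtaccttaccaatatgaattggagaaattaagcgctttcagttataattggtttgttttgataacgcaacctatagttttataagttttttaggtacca
trx, 3R:14283791-14283991: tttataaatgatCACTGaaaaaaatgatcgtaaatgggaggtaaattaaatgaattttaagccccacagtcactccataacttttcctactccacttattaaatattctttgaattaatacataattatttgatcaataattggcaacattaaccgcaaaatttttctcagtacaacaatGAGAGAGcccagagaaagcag
brm and Arl1, 3L:15982915-15983115: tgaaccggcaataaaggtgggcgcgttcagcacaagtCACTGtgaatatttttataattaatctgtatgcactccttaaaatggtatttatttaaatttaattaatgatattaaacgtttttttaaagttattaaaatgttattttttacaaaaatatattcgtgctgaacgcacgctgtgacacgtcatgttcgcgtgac

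The ph-p and ph-d windows shown hold none of the letters sought. The window of a weaker ph-p peak described below, not shown, has ACAGTGG 62 bp before the summit. The Trl window has 1 ACAGTGG near its left end, 93 bp before the summit. The kis window has ACAGTGG once on each strand, several GAGAG and 1 GCCAT. The Sfmbt window has TATCGATA, 58 bp before the summit. The trx window has CAGTG and GAGAG, and the brm window CAGTG alone. At E(z) and Su(z)12 CAGTG lies within 100 bp of the summit but outside the letters shown. Of the 13 pooled peaks assigned to members, 8 (61.5%) had CAGTG within 100 bp of the summit, against 926 of all 1825 pooled peaks (50.7%). The member share was the lower one within 50 bp (1 window, 7.69%, against 21.8% of all windows) and within 200 bp (9 windows, 69.2%, against 71.9%). ACAGTGG was in 3 member windows (23.1%), against 188 of all windows (10.3%). The Giant site with at most 1 mismatch was in 1 member window (7.69%), upstream of Psc, against 170 of all windows (9.32%), and its exact form was in 0 member windows and 7 of all windows. TATCGATA was in 1 member window (7.69%) and in 48 of all windows (2.63%), and GGTCACACT in 0 member windows and 15 of all windows (0.822%). GAGAG was in 2 member windows (15.4%) and 449 of all windows (24.6%), and GCCAT in 1 member window (7.69%) and 508 of all windows (27.8%). Within 200 bp, GAGAG was in 7 member windows (53.8%, against 48.5% of all windows) and GCCAT in 5 (38.5%, against 52.3%). With 13 windows these counts describe the letters only, and the absence of a match says nothing of a factor's binding. Median GC content was 36.3% in member windows and 36.8% in all windows.

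In all, 8 of the 34 genes (23.5%) had a pooled peak: ph-p, ph-d, Psc, E(z), Su(z)12, Sfmbt, kis and Trl. Among all protein-coding genes the share was 9.39% (1310 genes). By role, the peaks were at 3 of 6 PRC1 genes, 2 of 8 PRC2 genes, 1 of 4 genes of PhoRC and Scm, 0 of 2 PR-DUB genes, 0 of 4 trithorax group histone modifiers, 0 of 6 BRM complex genes, 1 of the pair kis and fs(1)h, and 1 of the pair Trl and lolal. That made 6 of 20 Polycomb group genes and 2 of 14 trithorax group and associated genes, a difference that was not tested. This split shifted with the rule. Counting a summit in the gene or within 1000 bp of it added ash1, brm, osa and Bap60 on the trithorax side and calypso on the Polycomb side. An IDR of 0.05 added trx, mor and lolal on the trithorax side and jing on the Polycomb side. With non-coding genes competing for peaks, kis was lost. The conservative list gave 7 members (20.6%), without Sfmbt, against 8.28% of all genes. Replicate 1 alone gave 9 members (26.5%), with trx added, against 6.7% of all genes. Replicate 2 alone gave 8 members (23.5%), with brm in place of Sfmbt, against 6.1% of all genes. In both replicates' own lists the count was 7 members (20.6%), against 4.41% of all genes. Within 500 bp of a TSS the pooled list gave 5 members (14.7%; ph-p, E(z), Su(z)12, Sfmbt and Trl), against 5.36% of all genes. There, ph-p counted through summits at 489 and 481 bp, which lay at 504 and 502 bp in replicate 1. The members were chosen with earlier results of these data known, so these shares are a description.

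**Figure D1:**
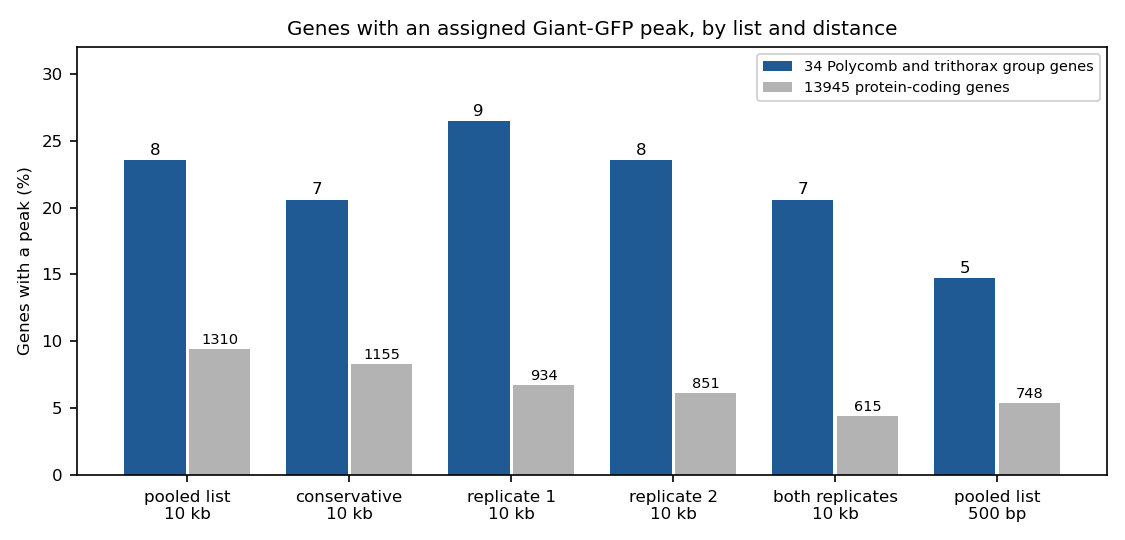
The bars show the percentage of genes with an assigned peak (y axis, from 0) for the 34 Polycomb and trithorax group genes on the left of each pair and for 13945 protein-coding genes on the right, by list and distance, with gene counts above the bars. The members' bars stand between 14.7% and 26.5% and those of all genes between 4.41% and 9.39%.

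In PRC1, the strongest member peak lay in ph-p, one of 2 tandem genes for Polyhomeotic, a PRC1 subunit that forms polymers through its SAM domain. The peak (X:2137205-2137521) had a signal of 418 in replicate 1, 536 in replicate 2 and 938 in the pooled list, and ranked 3 in each of these lists. It lay inside the gene, between alternative start sites and 489 bp upstream of the nearest. A second ph-p peak (X:2137761-2137995), 546 bp nearer the 5′ end of the gene and in the 5′ UTR, had signals of 111 (rank 143) in replicate 1, 240.2 (rank 41) in replicate 2 and 338 (rank 71) in the pooled list. Both replicates therefore had both ph-p peaks. The sites lay 289592 and 289118 bp from gt, the tagged gene, on the same chromosome, and the part of that position in the signal was not tested.

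The neighbouring copy, ph-d, had a peak 841 bp upstream of its TSS, in the 2923 bp between both genes (X:2123949-2124304). Its signal was 50.1 (rank 670) in replicate 1, 126 (rank 184) in replicate 2 and 171 (rank 311) in the pooled list. The summits of the strongest ph-p and ph-d peaks were 13217 bp apart. The genes arose by duplication, so their sequences were compared: the longest exact match of the 317 bp ph-p peak within ph-d and the sequence up to ph-p (10483 bp) was 31 bp. All 166 overlapping 36-base words of the ph-p window occurred once in the genome sequence, and so did those of the ph-d window. A second ph-d entry of the pooled list overlapped the first and had the lowest signal of the list (2.11, rank 1825), below every other peak, although its −log10 IDR was 2.77.

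**Figure D2:**
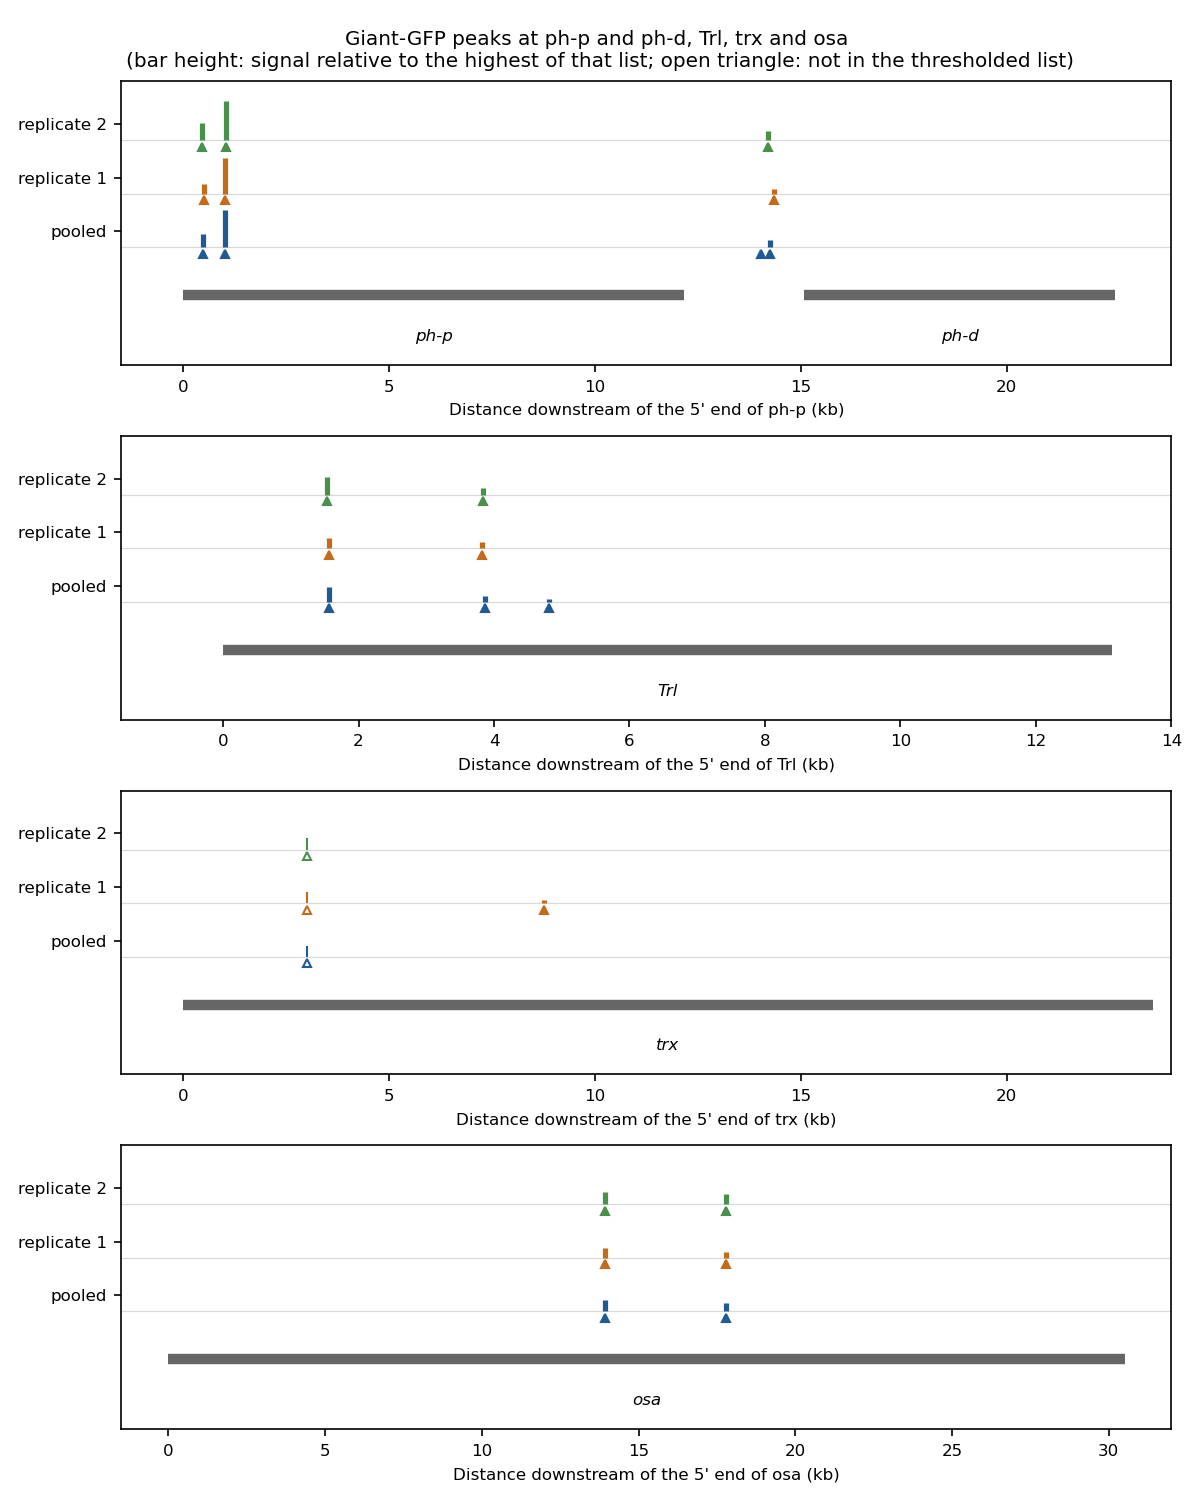
Each panel shows peaks (bars over triangles) at a locus along the distance downstream of the gene's 5′ end (x axis, kb), with gene bodies as grey bars and 1 track each for the pooled list, replicate 1 and replicate 2. Bar height is the signal relative to the highest signal of that list, and open triangles are regions outside the thresholded list. The stronger ph-p peak stands highest in all 3 tracks, and the trx region 3012 bp from the 5′ end is open in all 3.

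Psc, whose product compacts chromatin in PRC1, had 2 pooled peaks. The stronger (2R:12985131-12985321) lay 4212 bp upstream, in the 15506 bp between Psc and its relative Su(z)2. It had signals of 158 (rank 62) in replicate 1, 228 (rank 49) in replicate 2 and 392 (rank 50) in the pooled list. The other lay in an intron, 5044 bp downstream of the TSS (2R:12975436-12975791), with 67.0 (rank 398) in replicate 1, 77.8 (rank 491) in replicate 2 and 141 (rank 454) in the pooled list. In the pooled list, the intronic Psc summit was the member summit farthest from its TSS inside the 10000 bp limit. The remaining PRC1 genes had no thresholded peak. Su(z)2, Pc, the chromodomain subunit, and Sce, the ubiquitin ligase, had ranked regions of at most 39.9, 37.6 and 40.4 in the pooled ranked list.

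In PRC2, E(z) and Su(z)12 each had 1 pooled peak, just downstream of the TSS in the 5′ UTR. E(z) is the histone methyltransferase of the complex, and its peak (3L:10637893-10638248, 59 bp downstream) had signals of 57.8 (rank 509) in replicate 1, 110.2 (rank 256) in replicate 2 and 179 (rank 288) in the pooled list. Su(z)12 is a subunit that E(z) needs for activity, and its peak (3L:19923210-19923565, 74 bp downstream) had 50.5 (rank 657) in replicate 1, 73.3 (rank 554) in replicate 2 and 126 (rank 552) in the pooled list. Replicate 1 listed a second Su(z)12 peak overlapping the first, with a signal of 2.11, the lowest of its list. Of the other PRC2 genes, jing, the fly relative of AEBP2, had the highest ranked region (56.0) and 37 regions in all, the most of any member. The sequence nearest to its start sites, from which it can draw regions, was also the longest of any member. It measured 33441 bp, against a member median of 4704.5 bp, and its part in the number of regions was not tested. Jarid2, esc, Pcl and escl had at most 41.3, 37.1, 36.6 and 30.5. Caf1-55, a histone-binding protein shared with other complexes, had at most 22.3 in the pooled ranked list and no region in replicate 1.

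Sfmbt, the partner of the DNA-binding protein Pho in PhoRC, had a peak near the bottom of the lists (2L:13176760-13177115, 153 bp upstream). Its signal was 34.4 (rank 1100 of 1163) in replicate 1 and 65.7 (rank 1547 of 1825) in the pooled list, with a −log10 IDR of 2.22, just past the threshold of 2. In replicate 2 its strongest region had a signal of 29.8 and stayed below the threshold. Scm, which links PRC1 to the other complexes, and phol, the relative of pho, had at most 36.1 and 25.7 in the pooled ranked list. pho had no region of its own in any ranked list, and the nearest lay 96620 bp away in the pooled list, 23036 bp in replicate 1 and 23769 bp in replicate 2. pho is on chromosome 4, which held 98 ranked regions for 80 genes (1.23 per gene), against 9.57 to 11.7 per gene on the other arms. In PR-DUB, which removes ubiquitin from histone H2A, Asx had a region of 43.5 and calypso one of 28.7 in the pooled ranked list.

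Among trithorax group histone modifiers, trx, a histone H3 methyltransferase, had a strong region that the authors' thresholded lists leave out. The region (3R:14283791-14283966) lay in an intron, 3012 bp downstream of the TSS. Its signal was 126 in replicate 1 (rank 109), 152 in replicate 2 (rank 128) and 276 in the pooled ranked list (rank 122 of 145186). The −log10 IDR was 5, the highest value the column holds, in replicate 1 and 4.64 in both other lists, all past the threshold of 2. The pooled list left out 67 of the 1892 main-arm regions past that threshold, replicate 1 left out 51 of 1214 and replicate 2 left out 38 of 1138, and the trx region was the only one at a member in each. Replicate 1 did list another intronic trx peak (3R:14278012-14278267, 8763 bp downstream) with a signal of 35.9 and rank 1063. The remaining modifiers stayed lower: ash1, a histone H3 methyltransferase, and ash2, a subunit of methyltransferase complexes, had at most 39.7 and 34.5. Utx, a histone H3 demethylase, had no region in the pooled or replicate 2 ranked lists and 5 regions of 16.9 at most in replicate 1.

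In the BRM complex, the ATP-dependent remodeller named for its ATPase Brahma, no pooled peak was assigned to any of the 6 genes, but a strong one lay between brm and Arl1 (3L:15982917-15983108). It had a pooled signal of 395 and rank 48, with its summit 146 bp from the brm TSS and 120 bp from that of Arl1. In replicate 1 the signal was 153 and the summit was nearer Arl1 (118 bp, against 148 bp for brm). In replicate 2 the signal was 231 and the summit was nearer brm (120 bp). The peak was thus present in both replicates, and only the gene it was given to differed. The pooled list also had a peak between Bap60 and CG12096 (82.9, rank 1113, 81 bp from Bap60 and 15 bp from CG12096), which neither replicate listed.

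osa, a DNA-binding subunit, had a pooled peak inside the gene that lay beyond the distance limit, 13925 bp from its TSS (3R:17704335-17704469). Its signal was 118 (rank 121) in replicate 1, 164 (rank 103) in replicate 2 and 280.1 (rank 109) in the pooled list. A second peak in the osa gene (3R:17700377-17700732) was nearest to the TSS of CG31249, with 66.4 in replicate 1, 137 in replicate 2 and 206 in the pooled list. Within the limit, the strongest regions of the pooled ranked list were 60.9 for mor, 51.1 for osa, 30.7 for Snr1, 24.8 for brm, 23.7 for Bap60 and 11.6 for Bap55. mor and Snr1 encode core subunits and Bap60 and Bap55 accessory ones. Bap55 had no region in replicate 2.

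kis encodes a chromodomain remodeller of the CHD family. Its pooled peak (2L:223343-223698) lay in an intron 1559 bp upstream of the nearest TSS, within an exon of the noncoding gene lncRNA:CR44222. It had signals of 88.5 (rank 220) in replicate 1, 59.8 (rank 766) in replicate 2 and 152 (rank 387) in the pooled list. The conservative list added a weaker intronic kis peak of 67.3, 2854 bp upstream. fs(1)h, the fly BET bromodomain protein, had no peak of its own (52.3 at most), and replicate 1 alone had a peak of 42.5 that lay 10 bp from the TSS of mys and 199 bp from that of fs(1)h.

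Trl, which encodes GAGA factor, a DNA-binding protein of promoters and Polycomb response elements, had 3 pooled peaks, the most of any member. The strongest (3L:14759403-14759575) lay in an intron between alternative start sites, 1530 bp upstream of the nearest, with 124 (rank 105) in replicate 1, 239 (rank 42) in replicate 2 and 368 (rank 61) in the pooled list. The second (3L:14757001-14757356), 157 bp downstream of another start site, had 71.6 (rank 340) in replicate 1, 91.2 (rank 372) in replicate 2 and 157 (rank 363) in the pooled list. This second site also lies in an exon of the overlapping gene CG42507. The third (3L:14756060-14756415), 1098 bp downstream of that start site, had a pooled signal of 65.3 (rank 1555) and overlapped no peak of either replicate. Its partner lolal, a BTB-domain protein that binds GAGA factor, had a region 19 bp upstream of its TSS with a pooled ranked signal of 64.3 and a −log10 IDR of 1.97, just below the threshold.

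**Figure D3:**
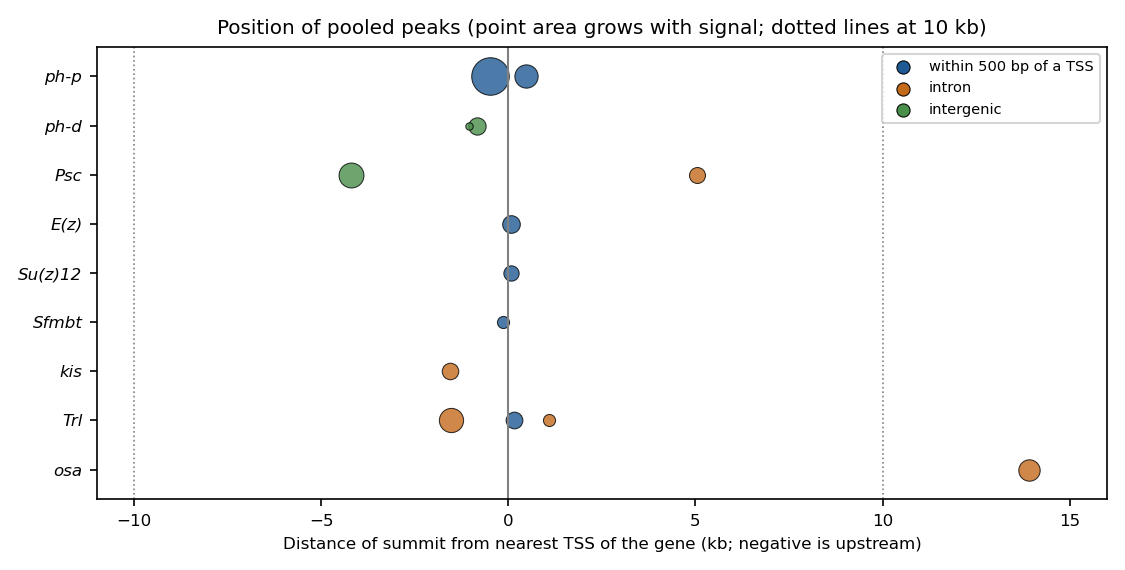
The points are pooled peaks of the members, placed by the distance of the summit from the nearest TSS of the gene (x axis, kb, negative upstream), with area growing with signal and colour giving the position class. E(z), Su(z)12 and Sfmbt have a single peak beside the TSS, and the strongest Psc peak lies 4212 bp upstream. The osa point lies beyond the 10000 bp limit, and its intron colour marks only a place inside the gene.

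The 13 member peaks ranged in signal from 2.11 to 938, with a median of 157, against 93.7 for all 1825 pooled peaks. Of the member peaks, 6 lay within 500 bp of a TSS (46.2%), 4 in introns (30.8%) and 3 in intergenic sequence, against 776 promoter peaks (42.5%), 630 intronic peaks (34.5%) and 367 intergenic peaks in the whole pooled list. The position classes were thus close to those of the list. Both ph-p peaks counted as promoter peaks at 489 and 481 bp. In replicate 1 their summits lay at 504 and 502 bp, just outside the 500 bp limit. Of the member peaks, 10 (76.9%) overlapped a peak of both replicates, against 752 of all pooled peaks (41.2%). The exceptions were the Sfmbt peak, the weakest Trl peak and the overlapping ph-d entry. These exceptions had pooled signals of 65.7 or less, and the 10 other peaks had 125.7 or more. The part of signal in the share was not tested. Of the 8 members with a peak, 4 had more than 1 (50%; ph-p, ph-d, Psc and Trl), against 250 of all 1310 genes with a peak (19.1%). For ph-d this rests on the overlapping entry. The sequence nearest to the gene's start sites, from which a gene can draw peaks, had a median length of 12043.5 bp for the 8 members with a peak, 4202.5 bp for the 26 without and 8444.5 bp for all genes with a peak. Over all 34 members the median length was 4704.5 bp, against 4327 bp over all 13945 protein-coding genes. The part of this length in the counts was not tested.

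Members without a peak lay on both sides of the median of all genes in the ranked list. Of the 26, 24 had a ranked region, and 11 of these reached the median of all genes. That median includes genes with a pooled peak, so it is not a like comparison. Their strongest regions ranged from 11.6 to 276, or to 64.3 leaving out trx. Over all members the strongest region had a median signal of 40.8 in the pooled ranked list (32 genes with a region), against 38.7 over 12585 protein-coding genes with a region. In replicate 1 the medians were 22.1 for the members and 17.7 for all genes, and in replicate 2 they were 29.8 for the members and 25.3 for all genes. By contrast, 8 of 32 members with a region lay in the top 10% of genes with a region in the pooled ranked list (a signal of at least 68.2). These 8 were trx and the members with a pooled peak other than Sfmbt, so they add no new sites to those above. The counts were 11 of 32 in replicate 1 and 10 of 31 in replicate 2. Across the 30 members with a region in both replicates, the strongest signals had a Spearman correlation of 0.74 between replicates, a description in which both values share the locus.

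**Figure D4:**
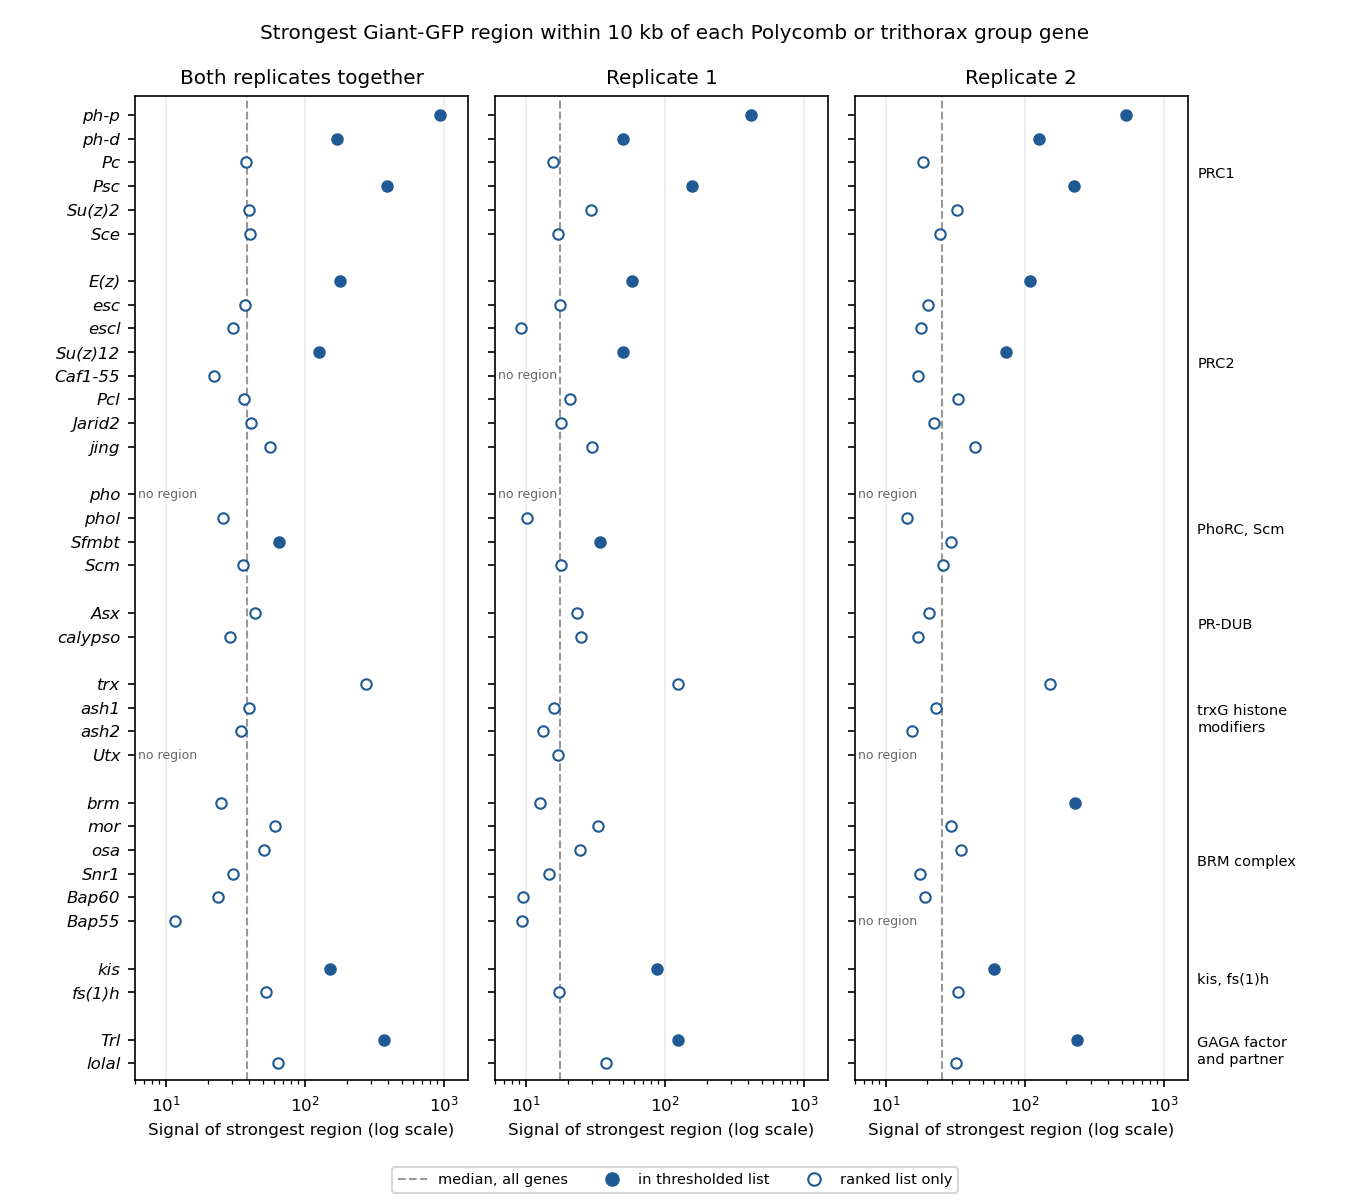
The points show the signal of the strongest region within 10000 bp of each of the 34 genes (x axis, log scale), grouped by complex, in the pooled, replicate 1 and replicate 2 ranked lists, with filled points in the thresholded list and dashed lines at the median of all genes. ph-p lies farthest right in each panel, trx is an open point of 276 in the pooled panel, and pho has no region in any.

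Several of the strongest peaks of the whole list lay within 10000 bp of a member and belonged to a nearer gene. The peak of rank 2 (signal 1141 in the pooled list) was at the promoter of CG14100, 6 bp beyond the 3′ end of ash1 and 8137 bp from the ash1 TSS. The peak of rank 9 (766) was at the promoter of Art3, 3959 bp from the TSS of Caf1-55, with a further peak of 141 at CG12241 beyond its other side. The peak of rank 23 (515) was at the promoter of CG3552, 1519 bp from the TSS of phol, with another of 102 nearest CG44838. Replicate 2 listed the CG44838 peak (83.2), and replicate 1 did not. Weaker ones lay 568 bp from calypso (67.4, nearest CG42837 and Lipt1) and 9933 bp from Bap55 (180, nearest l(2)k01209). Neither replicate listed the peak near calypso, and both listed the peak near Bap55 (67.3 in replicate 1 and 87.5 in replicate 2). Counting every gene with a TSS within 10000 bp, and so these too, gave 15 of the 34 members, against 31.3% of all genes.

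Beyond the members, 35 genes for partners of these complexes were listed. Of these, 5 (14.3%) had a pooled peak, against the 9.39% of all genes given above: 3 of 11 Polycomb partners and 2 of 24 trithorax partners. RYBP, a subunit of variant PRC1, had 3 peaks, the strongest 6308 bp downstream of its TSS with 48.7 in replicate 1, 68.8 in replicate 2 and 120 in the pooled list. nej, the CBP acetyltransferase, had a peak 714 bp upstream with 58.7 in replicate 1, 72.2 in replicate 2 and 124 in the pooled list. The other three partners had peaks in the pooled list that overlapped no peak of either replicate. They were Dsp1, an HMG protein (66.7), lid, a histone demethylase now named Kdm5 (78.0), and z, the DNA-binding protein Zeste (76.2 and 73.4). The z peaks lay 23421 and 26724 bp from gt, and the part of that position in the result was not tested.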

How the data were processed

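The 8 deposited peak lists hold a signal per peak, made by the authors on dm6, per the labels, which also list a control library (not analysed here). For the aligner, caller and signal scaling, the sources used here give no name or setting. In the ranked lists the authors deposited a −log10 global IDR, and the short lists were cut at 0.01 (−log10 of 2) by the authors, as checked on the files. Main-arm peaks (chromosomes 2, 3, 4 and X) were assigned with Ensembl release 115 genes to the protein-coding gene of nearest TSS, at most 10000 bp from the summit. Promoter means within 500 bp of a TSS. All 34 members had the same coordinates in RefSeq. Sequence came from the Release 6 FASTA of RefSeq. The members, motifs and partner lists were chosen with earlier results of these data known. All members were named, those with a thresholded peak with their values in each list. Partners with a pooled peak were named, and other genes only where nearer to a summit within 10000 bp of a member TSS. The assignment was tested on simulated data. Depth is unknown, so no interval is given, and counts describe the lists. Alternatives were other lists, distances, assignment rules, windows and an IDR of 0.05. Python 3.11.15, pandas 2.3.3, numpy 2.4.6 and matplotlib 3.10.9 were used.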

Additional observations from a re-analysis of the deposited data

How the results depend on the processing

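The count of 8 members with a pooled peak stayed within 1.5 times of that value in 11 of 14 alternatives. It was 5 within 500 bp of a TSS (5.36% of all genes). When a summit in the gene or within 1000 bp of it counted, it was 13 (12.8% of all genes), with ash1, brm, osa, Bap60 and calypso added. It was 15 when every gene with a TSS within 10000 bp counted (31.3% of all genes). With 1 replicate left out, the list of replicate 1 gave 9 (6.70% of all genes) and that of replicate 2 gave 8 (6.10% of all genes). With non-coding genes competing for peaks it was 7, without kis (8.43% of all genes), and within 20000 bp it was 9, with osa (9.93% of all genes). At an IDR of 0.05 it was 12, with jing, lolal, mor and trx added, against 16.3% of all genes. Chosen after seeing the data, adding the left-out regions gave 9 (9.53% of all genes) and leaving out entries that overlap a stronger peak gave 8 (9.31%). The 5 of 35 partners became 2 above the median signal (5.52% of all genes), 2 among peaks overlapping both replicates (4.52%), 2 in replicate 1 alone (6.70%), 2 in replicate 2 alone (6.10%), 1 within 500 bp (5.36%) and 3 with non-coding genes competing (8.43%). They became 15 with every TSS within 10000 bp (31.3% of all genes) and 12 at an IDR of 0.05 (16.3%). Requiring replicate summits within 100 bp kept the count in both replicates at 7, with brm gained and ph-d lost. The median strongest ranked signal of members, 40.8, was 34.6 within 1000 bp. CAGTG was in 8 of 13 member windows at 100 bp (50.7% of all windows), in 1 at 50 bp (21.8% of all windows) and in 9 at 200 bp (71.9% of all windows). The causes were not tested beyond what each construction gives. The unknown depth limits any reading of members without a peak. No paired analysis was possible because the series has 1 group.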
